A study of Drosophila melanogaster with 12 samples.

Results

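Starved Drosophila melanogaster larvae were compared with fed larvae of the same control genotype. The comparison rests on 6 of the 12 arrays of the series, those labelled precise excision control starved L3 and precise excision control fed L3, with 3 arrays each. RNA of whole larvae was measured on one-colour Affymetrix Drosophila expression arrays, on which a probe set is a group of short probes that report on 1 transcript or a few related ones. Both control groups carried EP2449(precise excision) over KG08976(precise excision), that is, 2 chromosomes from which a P-element had been excised precisely. Starved controls were isolated late in the second larval stage (L2), washed and kept without food for 24 h on paper soaked in buffered saline, and animals were taken that looked healthy and had moulted to the third stage (L3). Fed controls stayed on food, and both groups carry the age label mid-L3 larvae. The other 6 arrays, 3 each of starved and fed larvae labelled HNF4(del33)/HNF4(del17) mutant, a heteroallelic pair of deletions, entered the fit so that all 4 groups share 1 estimate of the spread. Samples were prepared in triplicate, and no source used here says whether these came from separate cultures, so p-values measure the spread between these samples, which may be technical.

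Insect larvae eat almost without pause and store the surplus in the fat body, an organ that combines tasks of liver and adipose tissue, as triglyceride droplets, glycogen and proteins. When food is withdrawn, lower insulin and TOR (target of rapamycin) signalling releases the transcription factor foxo and lets autophagy start, lipases open the lipid droplets, and glucagon-like adipokinetic hormone mobilises stores. Growth, which is costly in ribosomes, mitochondria, protein folding and DNA synthesis, is then held back. A larva that has passed its critical weight can still pupariate when starved, so nutrition and developmental timing are linked through ecdysone and juvenile hormone.

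Before the results, 1 array has to be named. Control fed replicate 3 lay at least 2-fold from both other fed arrays for 152 of 9669 probe sets (1.57%), whereas the other 5 arrays stood so apart from their own replicates for 4 to 52. Lsp2 (CG6806), a larval storage protein made by the fat body in L3 and named after its values were seen, gave 331, 369.5 and 328 in starved larvae, against 18373, 16372 and 290.4 in fed larvae. The third fed array was thus as low as the starved ones, and the difference of log2 -3.70 ± 1.54 missed the threshold (adjusted p = 0.0506). Without fed replicate 3 it was -5.66. Obp99b (CG7592; chromosome arm 3R, positions 29716254 to 29716896 of genome release 6), an odorant-binding protein, gave 87.0, 106 and 91.4 in starved larvae, against 17233, 19436 and 798 in fed larvae. Its groups did not overlap (log2 -6.09 ± 1.42, SE, adjusted p = 0.00300), but the third fed array lay far under the other two, and the difference was -7.60 without it, but -5.38 without fed replicate 1 and -5.30 without fed replicate 2. Whether that sample was at another point of L3 was not tested.

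**Figure D1:**
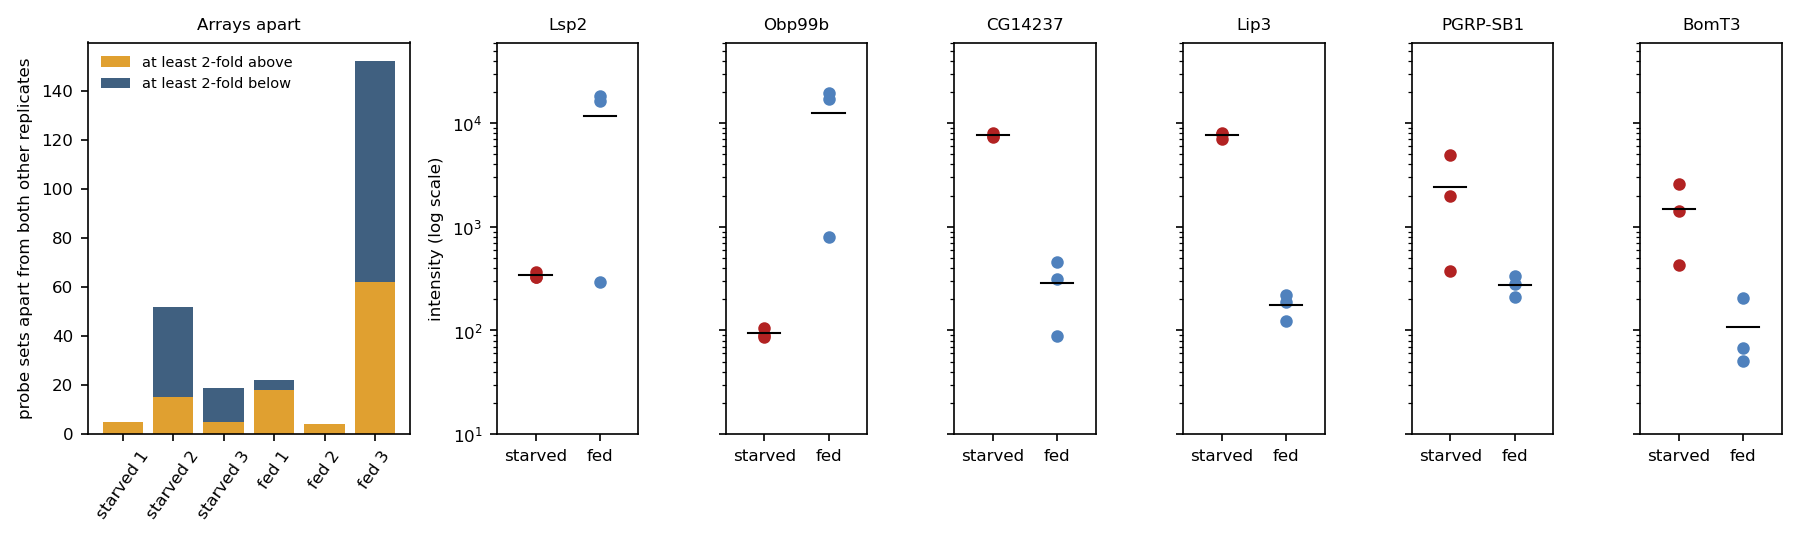
The bars count the probe sets on which each control array lay at least 2-fold above or below both other replicates of its group. The panels give intensities (log scale) of 6 transcripts on the 3 starved (red) and 3 fed (blue) arrays, with the group mean as a line. Fed replicate 3 has the tallest bar, 152 probe sets, and 1 of the 3 fed arrays lies near the starved ones for Lsp2.

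The response was broad. Of 9669 probe sets in the dChip table, 6594 (68.2%) passed an adjusted p of 0.05, 3486 higher (36.1%) and 3108 lower (32.1%) in starved larvae. A change of at least 2-fold was found for 801 higher (8.28%) and 553 lower (5.72%) probe sets, and of at least 4-fold for 137 higher (1.42%) and 90 lower (0.931%). At the level of 7442 genes with a probe set of their own, 69.8% were called, 37.5% higher and 32.3% lower, with a median log2 difference of 0.055, and the gene lists below are to be read against those shares. Replicates correlated at r = 0.988 to 0.994 among starved arrays and 0.968 to 0.989 among fed arrays. Array medians were 535 to 552 in starved and 493 to 519.8 in fed larvae, so intensities under about 254, the lowest 25th percentile of any of the 6 arrays, are dim. A count of genes within a list describes these larvae and is no test of the list.

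**Figure D2:**
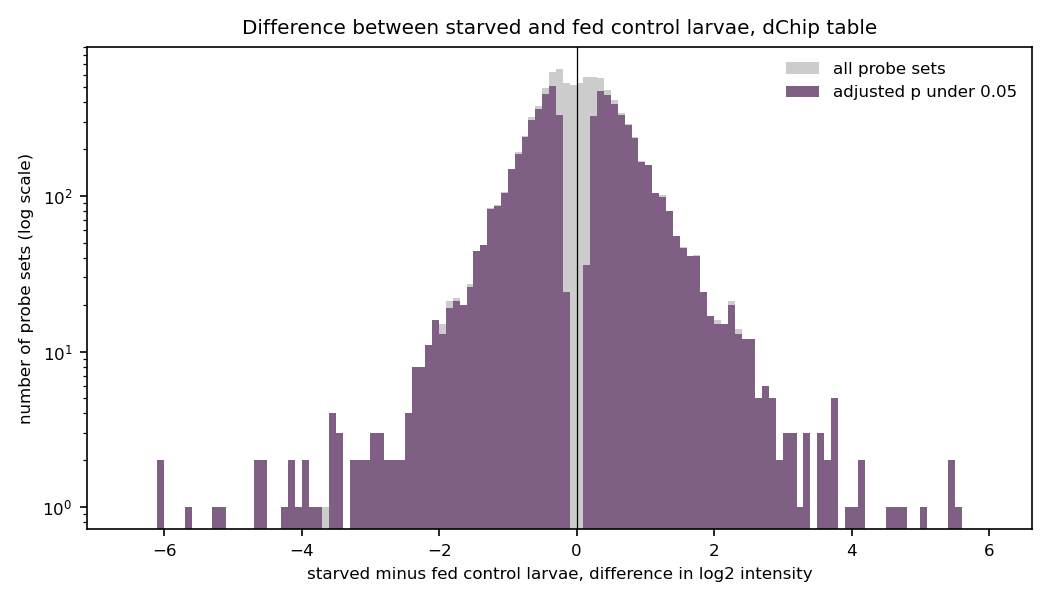
Histogram of the difference in log2 intensity, starved minus fed control larvae, over 9669 probe sets of the dChip table, with the number of probe sets on a log scale. The purple part marks probe sets with an adjusted p under 0.05 (6594 in all). It covers nearly every drawn difference beyond 1 in either direction. The drawn range leaves out the most extreme differences, such as -6.64 and 6.19 of probe sets without a gene symbol.

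Secreted and lysosomal lipases, small immune peptides and a gut amylase led the rises. Lip3 (CG8823; chromosome arm 3R, positions 13370240 to 13371904 of genome release 6), a predicted acid lipase, gave 7904, 7953 and 7072 in starved larvae, against 219, 189 and 123 in fed larvae. It was the largest rise of a named gene, 44.4-fold (log2 5.47 ± 0.18, SE, n = 3 each, adjusted p = 1.04e-08). CG14237 gave 7442, 7401 and 7995 in starved larvae, against 454, 312 and 89.3 in fed larvae, with the lowest fed value on replicate 3 (log2 5.03 ± 0.47, or 4.34 without that array). CG6271, a lipase of the pancreatic type, rose 17.2-fold and CG5966, of the same family, 13.3-fold. Amyrel, an amylase-related enzyme, gave 4753, 5201 and 5338 in starved larvae, against 646, 429.8 and 283 in fed larvae, and every starved array exceeded every fed array (log2 3.57 ± 0.25).

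Other large rises came from genes with little functional annotation or of the protease families. CG12951, a predicted serine protease, averaged 5333 ± 434 in starved and 354 ± 193 in fed larvae (SD), and Bace, a predicted aspartyl protease, averaged 4199 ± 1802 in starved and 253 ± 67.9 in fed larvae. CG5550 averaged 2998 ± 609 in starved and 124 ± 43.0 in fed larvae, CG42369 2675 ± 229 in starved and 214 ± 10.8 in fed larvae and CG10383 5311 ± 212 in starved and 522 ± 66.8 in fed larvae. None of these groups overlapped. Bace was the least even, since starved replicate 3 gave 2222 against 4627 and 5748 on the other starved arrays.

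The largest falls brought transcripts that were bright in fed larvae close to the dim end of the scale. Alp4 (CG1462; chromosome arm 3R, positions 31048929 to 31052540 of genome release 6), an alkaline phosphatase, gave 176, 163 and 194 in starved larvae, against 2714, 2828 and 2944 in fed larvae. Its replicates were close, and the difference was log2 -3.996 ± 0.10 (SE, adjusted p = 1.82e-09). CG11892, CG9259, CG13360 and CG10514, 4 predicted members of the ecdysteroid kinase-like family, fell by 35.4-fold, 25.3-fold, 17.9-fold and 13.1-fold. CG11892 gave 82.1, 76.6 and 74.6 in starved larvae, against 3292, 3695 and 1713 in fed larvae, and the starved arrays lay under the dim mark of 254. AANATL4, an arylalkylamine N-acetyltransferase-like gene, and ninaD, a scavenger receptor for carotenoid uptake, fell by 23.5-fold and 15-fold. CG15155, CG14258, CG8012, CG3348, CG4830, CG11300 and CG17290 completed the 15 largest falls among probe sets with 1 gene symbol, no overlap between the groups and a fed mean above the median intensity, at log2 -4.69, -4.58, -4.29, -4.18, -4.05, -3.52 and -3.52. For CG17290, fed replicate 3 alone gave 2460.0, against 538 and 449 on the other fed arrays, and the difference was -2.74 without it. ninaD stood at -4.49 without the same array.

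Transcripts of several lipases rose, while a coat protein of the lipid droplet fell. Of 15 measured genes for lipases and the lipid droplet, 7 rose and 5 fell. The median was log2 0.10, but 0.57 without fed replicate 1 and 1.34 without the dimmest 40% of probe sets. bmm (brummer), the main triglyceride lipase of the fat body droplet, gave 5412, 5391 and 5801 in starved larvae, against 867, 620.1 and 499.8 in fed larvae. The groups lay far apart (log2 3.10 ± 0.16, SE, adjusted p = 1.91e-07). Lip4, a lipase that foxo is known to induce, gave 1590.4, 1781 and 1983 in starved larvae, against 343, 350.2 and 197 in fed larvae (log2 2.63 ± 0.21). Lsd-1, the perilipin that coats the droplet and regulates lipase access, fell, with 967, 1010.1 and 848 in starved larvae, against 4404, 4621 and 4474 in fed larvae. Seipin, a droplet assembly protein, fell too (-0.97 ± 0.13).

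Genes of fatty acid synthesis fell, and some genes of membrane lipid synthesis rose. Of 22 genes of lipid synthesis 9 rose and 7 fell, with a median of 0.04 that turned to -0.05 after median centring and -0.07 in the series matrix. FASN1, fatty acid synthase, gave 4809.9, 5275 and 5002 in starved larvae, against 21799, 19291 and 23567 in fed larvae. The enzymes on either side of its substrate, acetyl-CoA synthetase AcCoAS (-2.08 ± 0.14) and acetyl-CoA carboxylase ACC (-1.70 ± 0.20), fell by similar amounts. In contrast eas, the ethanolamine kinase of phosphatidylethanolamine synthesis, gave 2094, 2373 and 2317 in starved larvae, against 659, 575 and 773 in fed larvae. Lpin, a phosphatidate phosphatase and nuclear coregulator, rose by 1.70 ± 0.14, and bigmax, the partner of the sugar sensor Mondo, by 1.57 ± 0.087.

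Among genes of fatty acid oxidation the clearest rise was that of whd. whd (withered), the carnitine palmitoyltransferase that controls that step, gave 3884, 4181 and 4312 in starved larvae, against 1089, 1017 and 920.4 in fed larvae, with no overlap (log2 2.03 ± 0.10, SE, adjusted p = 1.40e-07). pdgy (pudgy), an acyl-CoA synthetase, rose by 2.07 ± 0.14. Of 16 genes for the carnitine shuttle and β-oxidation, though, only 5 rose and 3 fell, a called share of 50%, against 69.8% of all genes. Without starved replicate 1, starved replicate 3 or fed replicate 2 the rises were 3. The thiolase yip2 rose (1.01 ± 0.16), and the enoyl-CoA isomerase-like CG4594 fell (-1.50 ± 0.10). Small acyl-CoA-binding proteins, which buffer these esters, were lower. Of 6 measured, 5 fell, led by Acbp3 with 3212, 2236 and 3479.9 in starved larvae, against 14246, 13891 and 9494 in fed larvae. This group was taken out of its list after its values were seen.

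Sterol and lipoprotein carriers were mixed, with 8 of 18 higher and 4 lower. LpR1, a lipophorin receptor, gave 2300.1, 2037 and 2499 in starved larvae, against 848, 769 and 834 in fed larvae. Npc2c rose (1.57 ± 0.40) and its paralogs Npc2g (-1.14 ± 0.14) and Npc2b (-1.10 ± 0.084) fell. Mtp, which loads lipid onto lipophorin, fell by 2.45-fold, and apolpp, the precursor of its apolipoproteins, was among the brightest transcripts and differed by only -0.39 ± 0.11.

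Genes of glucose production rose more often than they fell, and those of glycolysis fell more often than they rose. Of 13 genes for gluconeogenesis, trehalose and glycogen, 8 rose and 2 fell, while of 14 for glycolysis and pyruvate entry 3 rose and 8 fell. The falls of the second list were mostly small, 3 with a change of at least 1.5-fold and 5 after quantile normalization. The called enzymes Pgi, Ald1, Tpi, Pgk and Eno differed by -0.31 to -0.39 and Pglym78 by -0.67, and Gapdh1 did not pass. Of these, Pgi, Ald1, Tpi, Eno and Gapdh1 were named after their values were seen. Pepck1, phosphoenolpyruvate carboxykinase, gave 16443, 14861 and 16305 in starved larvae, against 6212, 5435 and 4163 in fed larvae. Its paralog Pepck2 gave 2567, 2849 and 2938 in starved larvae, against 591, 504 and 582 in fed larvae. Both groups were separate (log2 1.61 ± 0.22 and 2.32 ± 0.29). Pdk, the kinase that shuts pyruvate dehydrogenase, rose 3.42-fold, and muc, a subunit of that dehydrogenase, fell (-0.82 ± 0.078). Gpdh1, glycerol-3-phosphate dehydrogenase, fell (-1.12 ± 0.13), and Tps1, trehalose-6-phosphate synthase, rose by 0.73 ± 0.12. Hexokinase Hex-A (1.06 ± 0.11) and the fructose-2,6-bisphosphate enzyme Pfrx (0.96 ± 0.10) were the glycolysis members that rose besides Pdk. Sugar transporters were split evenly, 8 higher and 8 lower of 22, a called share of 72.7%, near the 69.8% of all genes. Among them CG7882 stood at -1.75 and nebu at 1.05.

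Transcripts of amino acid breakdown rose along the glycine, methionine and tyrosine routes. Of 31 genes, 15 rose and 8 fell (median 0.31). Gnmt, glycine N-methyltransferase, which consumes S-adenosylmethionine, gave 11078, 11667 and 9226 in starved larvae, against 2332, 1827 and 1982 in fed larvae. Sardh, which turns its product sarcosine back into glycine, rose by 1.94 ± 0.15. All 6 measured genes of this cycle were higher, by 0.52 to 2.38. In tyrosine breakdown hgo, homogentisate dioxygenase, gave 3558, 2735 and 4264 in starved larvae, against 696, 643 and 781 in fed larvae. The next enzyme, maleylacetoacetate isomerase, has 2 genes that parted, GstZ2 with 3078, 2382 and 3445 in starved larvae, against 545, 524 and 714 in fed larvae and GstZ1 with 331, 355 and 366 in starved larvae, against 707, 782 and 691 in fed larvae. In total 5 of 6 tyrosine genes rose and 1 fell. Both subgroups were formed after the values were seen. Asparagine synthetase AsnS went the other way, with 371, 281 and 303 in starved larvae, against 1829.8, 1829 and 1469.8 in fed larvae. Proline and aspartate enzymes P5CDh1 (-0.64 ± 0.072), P5cr (-0.69 ± 0.24, lost without starved replicate 2 or 3 or fed replicate 1 or 3) and Got2 (-0.67 ± 0.11) fell.

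Amino acid transporters were more often higher, 12 against 6 lower of 24. CG13796, of the neurotransmitter symporter family, gave 472, 511 and 520.1 in starved larvae, against 98.1, 99.95 and 87.9 in fed larvae, so the fed arrays were dim. path (pathetic), a late endosomal transporter that acts on TOR, gave 5567, 5752 and 5736 in starved larvae, against 2691, 2423 and 2773 in fed larvae. Purine synthesis had 3 clear rises, Paics (1.32 ± 0.14), Gart (1.27 ± 0.21) and Adss (1.13 ± 0.13), while the enzymes that feed DNA precursors fell, among them dnk (-1.23 ± 0.14) and dUTPase (-1.07 ± 0.093). Over the whole list of purine and pyrimidine synthesis 6 rose and 4 fell of 16.

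Genes of the insulin and TOR pathway rose, 16 of 20 with 1 lower and a median of log2 0.93, against 37.5% higher and a median of 0.055 over all genes. InR, the insulin receptor and a known foxo target, gave 1235, 1256 and 1198 in starved larvae, against 665, 555 and 555 in fed larvae. The receptor substrate chico gave 1654, 1675 and 1525 in starved larvae, against 649, 587 and 639 in fed larvae. Neither pair of groups overlapped (log2 1.06 ± 0.10 and 1.37 ± 0.11). The kinase Pdk1 rose by 1.33 ± 0.12 and foxo itself by 0.94 ± 0.070. REPTOR-BP, partner of the factor that TOR complex 1 holds inactive, gave 2305, 2390.1 and 2386 in starved larvae, against 454, 507 and 284 in fed larvae, the largest rise of the list (log2 2.55 ± 0.20, SE, adjusted p = 1.69e-06). Sesn (sestrin), an inhibitor of that complex, gave 1865, 1721 and 1775 in starved larvae, against 674, 576 and 678 in fed larvae.

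Circulating signals changed in both directions. Lst (limostatin), a peptide that lowers insulin secretion in adult flies, gave 5719, 5729 and 5699 in starved larvae, against 1132, 1061 and 878 in fed larvae. CCHa2, a fat body and gut hormone that promotes insulin production in fed larvae, fell, with 539, 474 and 433 in starved larvae, against 1012, 1035 and 792 in fed larvae. Akh, adipokinetic hormone, rose a little at dim values (181, 185 and 166 in starved, 149.6, 127 and 118 in fed larvae), and its receptor AkhR fell (-0.40 ± 0.15). Neither call was firm, since Akh missed the threshold without starved replicate 2 or fed replicate 3 (adjusted p = 0.052 and 0.057), and AkhR missed it without any 1 of the 6 arrays except fed replicate 3, at -0.24 without fed replicate 2. Akh missed it also after median centring (0.059) and AkhR in the series matrix (0.098). Gbp2, a growth-blocking peptide, rose by 0.84 ± 0.10 and the activin daw by 0.51 ± 0.12. Among receptors wgn, of the tumour necrosis factor family, rose by 1.55 ± 0.14 and dome, of the JAK/STAT pathway, by 1.27 ± 0.073. Ilp2, an insulin-like peptide made in brain cells, rose by 0.25 ± 0.081, a call that was lost without starved replicate 1, starved replicate 2 or fed replicate 1, after quantile normalization or median centring (adjusted p = 0.136 and 0.135), with the control arrays alone (0.060) and in the series matrix (0.255). The sugar-induced factor sug (sugarbabe) gave 472, 373 and 346 in starved larvae, against 1551, 1006 and 1003 in fed larvae. tobi, an α-glucosidase under insulin and glucagon-like control, rose by 1.24 ± 0.23 and the nuclear receptor Hnf4 by 0.55 ± 0.080. Over all 19 measured hormones and receptors 13 rose and 3 fell. Of 22 starvation genes taken as a set, 14 rose, 3 fell and 5 did not pass, namely Mondo (0.21 ± 0.12, past it without fed replicate 3), EcR (0.19 ± 0.17), Gbp1 (0.19 ± 0.12), egr (0.12 ± 0.11) and Lsd-2 (-0.09 ± 0.086).

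**Figure D3:**
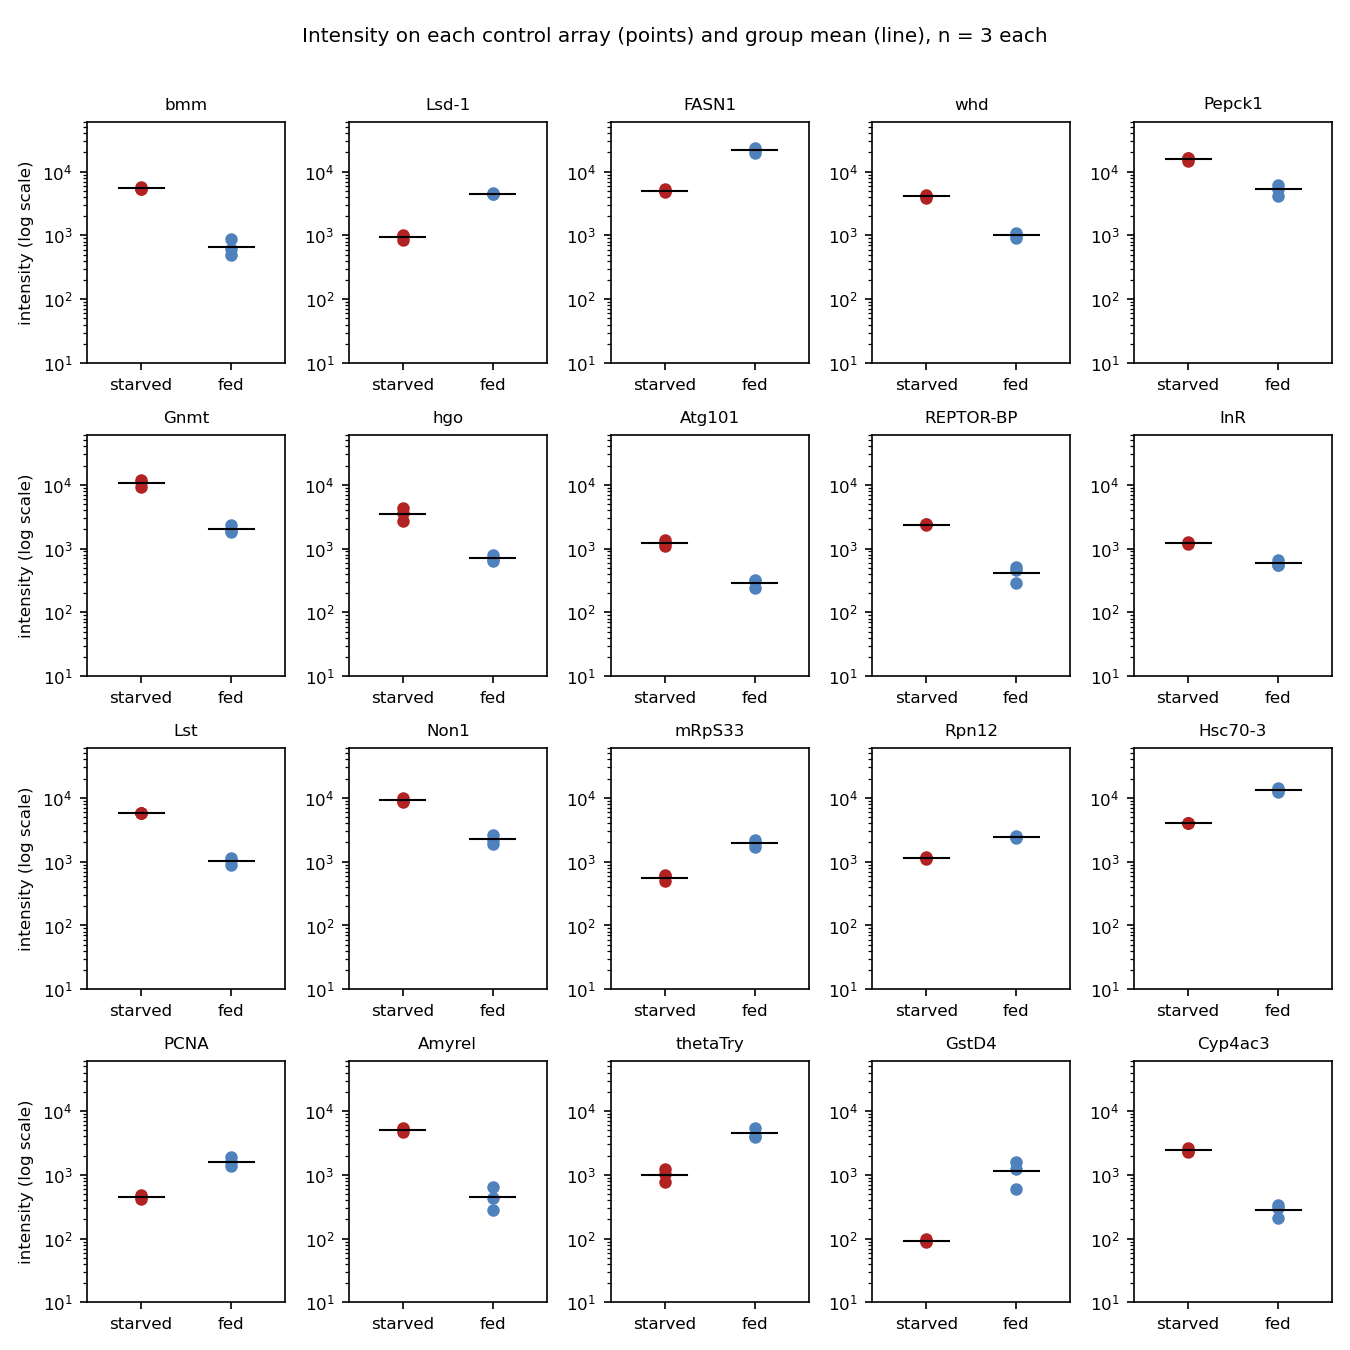
Intensity (log scale) of 20 transcripts on each control array, with starved larvae in red on the left, fed larvae in blue on the right and the group mean as a line (n = 3 each). In every panel the 3 starved points lie apart from the 3 fed points.

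Autophagy genes rose together. Of 24 measured, 19 rose and 1 fell, at a median of 0.69 (1.15 in the series matrix). Atg101, a subunit of the initiating kinase complex, gave 1111, 1352 and 1231 in starved larvae, against 321, 244 and 311 in fed larvae. Atg1, the kinase of that complex, gave 1174, 1278 and 1197 in starved larvae, against 516, 401 and 504 in fed larvae. The membrane protein Atg9 (1.67 ± 0.14), the ubiquitin-like Atg8a that decorates the autophagosome (1.28 ± 0.10) and the cargo adaptor ref(2)P (1.45 ± 0.11) rose too. Of 24 lysosomal genes 13 rose and 3 fell, a called share of 66.7%, against 69.8% of all genes. The cathepsin CtsF gave 7598, 8194 and 7669 in starved larvae, against 2773, 2448 and 2449 in fed larvae, CtsL1 rose by 1.09 ± 0.069 and Sap-r, the saposin precursor, by 1.12 ± 0.10. Of 21 subunits of the vacuolar proton pump, 10 rose and 2 fell, a called share of 57.1%, under that of all genes.

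Genes of the mitochondrial ribosome and of protein import into mitochondria fell. Of 66 proteins of the mitochondrial ribosome, 59 fell and 0 rose, in the large subunit 40 of 43 and in the small subunit 19 of 23. The median was log2 -0.89, against 0.055 over all genes. Of 3 members of this list found only in the series matrix, 1 was higher and 0 were lower. mRpS33 gave 589, 489.6 and 616 in starved larvae, against 1684, 1960.2 and 2217 in fed larvae, and mRpL14 gave 473, 375 and 447 in starved larvae, against 1179.6, 1285 and 1578 in fed larvae. In both the starved arrays were all lower (log2 -1.79 ± 0.15 and -1.64 ± 0.13). mRpL12, which also binds the mitochondrial RNA polymerase, gave 1041, 845 and 1069 in starved larvae, against 2161, 2172 and 3936 in fed larvae, with its highest value on fed replicate 3. Proteins that carry precursors into mitochondria fell for 10 of 11, among them the small chaperones Tim9a (-1.66 ± 0.15) and Tim8 (-1.48 ± 0.14) and the pore Tom40 (-1.09 ± 0.19). Of 5 import genes found only in the series matrix, 2 were higher and 0 were lower. Without fed replicate 3 the medians were -0.77 for the ribosome and -0.56 for import. All 3 chaperones of the matrix that were looked up afterwards fell, with Hsp60A at -1.25 and its cochaperone CG11267 at -1.28.

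Subunits of the respiratory chain and ATP synthase encoded in the nucleus were lower too, 49 of 60 with 4 higher, by a smaller median of -0.45. UQCR-Q, of complex III, gave 718, 642 and 695 in starved larvae, against 1079.6, 1176 and 1074 in fed larvae. COX7C (-0.72 ± 0.084) and ND-15 (-0.82 ± 0.12) belong to complexes IV and I. Among the members that rose were ATPsynGL (0.71 ± 0.10) and ATPsynbetaL (0.32 ± 0.089), paralogs of ATP synthase subunits, and ND-51 (0.27 ± 0.073), a subunit of complex I. ATPsynbetaL and ND-51 missed the threshold after median centring (adjusted p = 0.055 and 0.051), and ND-51 stood at 0.015 in the series matrix (0.900). The tricarboxylic acid cycle had a called share of 50%, 2 higher and 5 lower of 14. ScsbetaG, the GTP-forming β-subunit of succinyl-CoA synthetase, fell (-1.05 ± 0.12) and ScsbetaA, the ATP-forming one, rose (0.55 ± 0.070), but stood at 0.20 in the series matrix and missed the threshold there (adjusted p = 0.052).

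**Figure D4:**
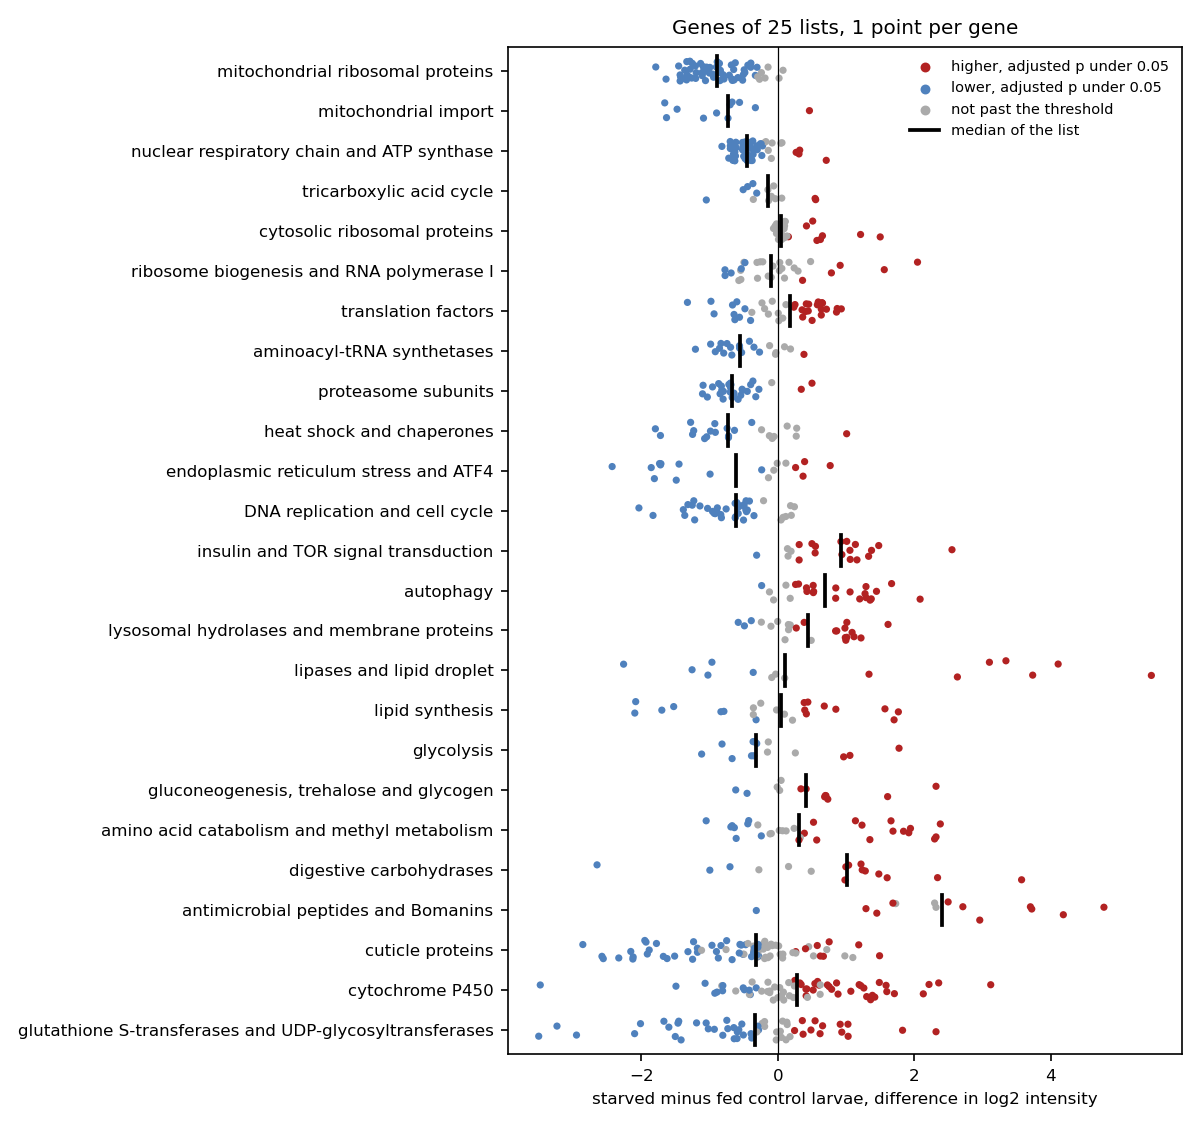
Difference in log2 intensity between starved and fed control larvae for each gene (point) of 25 lists. Red points rose and blue points fell at an adjusted p under 0.05, grey points did not pass, and the black bar is the list's median. Mitochondrial ribosome, import and proteasome lists lie to the left of 0, and insulin and TOR, autophagy and antimicrobial lists to the right.

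Most cytosolic ribosomal proteins were not called, and some paralogs and assembly factors rose. Of 37 cytosolic ribosomal proteins and paralogs 8 rose and 0 fell, with 16 rises after quantile normalization and 6 after median centring. In 30 of the 37 genes the mean over all arrays exceeded 5000, and 1 of these rose, with differences of -0.06 to 0.15. Their means reached 28652 in starved and 28438 in fed larvae, near the highest values of these arrays (30882 in starved and 37787 in fed larvae), where probes may be close to their maximum signal; compression there was not tested. RpL24-like gave 5079, 6519 and 5556 in starved larvae, against 1652, 1919.7 and 2565 in fed larvae and RpL7-like gave 4141, 4876 and 4288 in starved larvae, against 1717, 1713 and 2368 in fed larvae. These paralogs are related to factors that assemble the large subunit in yeast. Non1, a nucleolar GTP-binding protein of the same assembly line, gave 8558, 9987 and 8907 in starved larvae, against 2202, 1894 and 2589.8 in fed larvae, and udd, of RNA polymerase I transcription, gave 2313, 2439 and 2280.1 in starved larvae, against 776, 877 and 739 in fed larvae. Both exceeded all fed arrays (log2 2.05 ± 0.15 and 1.56 ± 0.10), although over ribosome biogenesis as a whole 5 rose and 5 fell of 29, a called share of 34.5%, with 2 lower without fed replicate 3, 3 without starved replicate 3 and 8 without fed replicate 1. The median of that list was -0.10, and 0.15 without fed replicate 3.

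Translation factors split by complex. Of 38, 19 rose and 10 fell. The eIF3 subunits, which hold the small ribosomal subunit ready for the message, rose for 13 of 14, with a median of 0.59 and eIF3l at 6125, 6767 and 6249 in starved and 3218, 2814 and 4136 in fed larvae. Of the other 24 factors 6 rose and 9 fell, and the elongation factor subunit eEF1delta gave 3337, 3142 and 3287 in starved larvae, against 7049, 7427 and 10342 in fed larvae. This split was made after the values were seen. Aminoacyl-tRNA synthetases fell for 15 of 21 and rose for 1, with ArgRS at -1.21, AlaRS at -0.98 and the exception TyrRS at 0.38, which missed the threshold without starved replicate 2 or fed replicate 2 (adjusted p = 0.057 and 0.067) and in the series matrix (0.093).

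Genes of the proteasome and of protein folding were lower. Of 30 proteasome subunits 27 fell and 2 rose. The 12 subunits of the core and the 14 of the regulatory particle that carry plain names all fell. Rpn12 gave 1179.8, 1104 and 1159 in starved larvae, against 2419, 2379 and 2559 in fed larvae and Prosalpha4 gave 1210.3, 1137 and 1193 in starved larvae, against 2354, 2584 and 2680.1 in fed larvae. The starved values clustered tightly below the fed ones (log2 -1.10 ± 0.071 and -1.10 ± 0.072). The members that rose, Rpt3R (0.50 ± 0.13) and Rpt4R (0.34 ± 0.085), are paralogs known from the testis, and Rpt4R missed the threshold in the series matrix (adjusted p = 0.055). All 8 subunits of the CCT chaperonin, which folds actin and tubulin, fell, at -0.64 to -1.07. Of 23 chaperones and heat shock proteins 15 fell, and the small heat shock protein Hsp26 (1.01 ± 0.15) rose.

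The entry to the secretory pathway was lower as well. Hsc70-3, the BiP chaperone of the endoplasmic reticulum, gave 4061, 3978 and 4073 in starved larvae, against 14129.6, 12416 and 13410.1 in fed larvae. Sec61beta and Sec61gamma, of the channel that lets new proteins in, gave 3618, 3582 and 3571 in starved larvae, against 11406, 12645 and 11793 in fed larvae and 2511, 2675 and 2631 in starved larvae, against 8860.4, 10006 and 8574 in fed larvae. Manf, a factor released under stress of that organelle, fell (-1.86 ± 0.15). Of 18 genes of this list 10 fell and 4 rose, namely the kinase Gcn2, which senses uncharged tRNA (0.77 ± 0.12), trbl (0.39 ± 0.063), the sensor Ire1 (0.37 ± 0.090) and crc, the fly ATF4 (0.26 ± 0.072).

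DNA replication and cell cycle genes fell for 34 of 41 and rose for 0 (median -0.62), with 2 rises without starved replicate 1 and 1 without fed replicate 1 or fed replicate 3. Of 4 members found only in the series matrix, 1 was higher and 0 were lower. Much of the list is dim, and among the genes left without the dimmest 40% of probe sets 9 fell, at a median of -0.42. PCNA, the sliding clamp, gave 456, 414 and 479 in starved larvae, against 1578, 1366 and 1878 in fed larvae. RnrL, the large subunit of ribonucleotide reductase, gave 348, 306 and 335 in starved larvae, against 1263, 1061 and 1831 in fed larvae. CycE, which starts S phase, gave 91.4, 105 and 121 in starved larvae, against 291, 277 and 257 in fed larvae, with dim starved values. All 5 measured subunits of the replicative helicase were lower, at -1.03 to -1.36, and dpa is 1 of them (-1.36 ± 0.15). Their starved means were 152 to 322, mostly dim.

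Digestive enzymes changed in both directions, and carbohydrases were more often higher. Of 16 carbohydrases 10 rose and 3 fell, with a median of 1.02 that was 0.62 without fed replicate 3. Mal-B2, a maltase, gave 1799, 2132 and 2008 in starved larvae, against 412, 427 and 338 in fed larvae. Mal-A8 of the same family fell, with 216, 325 and 183 in starved larvae, against 1769, 1192 and 1507 in fed larvae. Of 34 serine proteases of the gut 10 rose and 5 fell, a called share of 44.1%, under the 69.8% of all genes. Their median was 0.12, but -0.11 without fed replicate 3. alphaTry gave 8229, 9721 and 7224 in starved larvae, against 3304, 2213 and 2163 in fed larvae, and thetaTry gave 1234, 778 and 1021 in starved larvae, against 3899, 5462 and 4077 in fed larvae, so that neighbouring trypsin genes changed in opposite directions (log2 1.73 ± 0.18 and -2.16 ± 0.18). Jon44E rose (1.25 ± 0.16) and Jon66Cii fell (-1.10 ± 0.24). Such proteases and maltases are similar in sequence, and probes of one may bind another. Of 11 lysozymes, mucins and peritrophic proteins 8 rose, led by the chitinase Cht4 (2.90 ± 0.39) and the mucin Muc55B (2.15 ± 0.26), and Peritrophin-A fell (-1.26 ± 0.19).

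Many immune peptides rose in starved larvae, unevenly among the arrays. Of 14 antimicrobial peptides and Bomanins, short secreted peptides of the Toll pathway, 10 rose and 1 fell (median 2.41). BomS6 gave 3445, 5209.8 and 3469 in starved larvae, against 297, 166 and 211 in fed larvae. BomS2 gave 3126, 7118 and 2707 in starved larvae, against 973, 69.4 and 43.2 in fed larvae, where 1 fed array lay well above the other two (log2 4.78 ± 1.12, but 6.16 without fed replicate 1 and 3.92 without fed replicate 3). Bbd (Bombardier), needed for these peptides in the blood, gave 4527, 4930.2 and 3322 in starved larvae, against 633, 318 and 159.9 in fed larvae. BomT2 and BomT3 rose by 3.72 ± 0.75 and 3.70 ± 0.67, and by 4.36 and 4.30 without fed replicate 1; without starved replicate 3 BomT3 stood at 4.42. The 8 measured Bomanins rose by 1.29 to 4.78, and their probes may share transcripts because their sequences are alike. Drs (drosomycin), an antifungal peptide named after its values were seen, gave 10004, 11138 and 7572 in starved larvae, against 2518, 1426 and 500.3 in fed larvae (log2 2.96, or 2.32 without fed replicate 3).

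Some other immune genes depended on single arrays. DptB, a diptericin, gave 2335, 6942 and 209.6 in starved larvae, against 156, 427 and 413 in fed larvae, and Mtk, metchnikowin, gave 3140.4, 5558 and 251 in starved larvae, against 172, 514 and 417 in fed larvae. In both, starved replicate 3 lay in or under the fed range and neither passed the threshold (log2 2.32 and 2.30, adjusted p = 0.120 and 0.0902). Without starved replicate 3 both passed (3.74 and 3.65, adjusted p = 0.0133 and 0.00689), and without starved replicate 2 they stood at 1.21 and 1.41. These 2 genes were also named after their values were seen. PGRP-SB1, a secreted peptidoglycan amidase, gave 1972, 4959 and 375 in starved larvae, against 209.9, 278 and 332 in fed larvae; it passed (log2 2.52 ± 0.68), with its lowest starved value close to the fed arrays. Its difference was 1.68 without starved replicate 2 and 3.54 without starved replicate 3, and it missed the threshold with array weights (adjusted p = 0.098). TotC, a humoral stress protein, gave 272, 764 and 139.7 in starved larvae, against 21.4, 31.4 and 24.7 in fed larvae (log2 3.59 ± 0.51, or 2.93 without starved replicate 2). Rel (Relish), an NF-κB factor of immune signalling, was even, with 3733, 4521 and 3829 in starved larvae, against 927, 754 and 874 in fed larvae. Of 24 recognition and signalling genes 16 rose and 2 fell.

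Cuticle genes were lower in part. Of 80 measured cuticle proteins 39 fell and 8 rose, a called share of 58.8%, with 5 rises without starved replicate 1, fed replicate 1 or fed replicate 2 and a median of -0.32. Lcp65Ae, a larval cuticle protein, gave 1739, 585 and 1734 in starved larvae, against 8526, 9467 and 8307 in fed larvae. TwdlP, of the Tweedle family, gave 998, 397 and 764 in starved larvae, against 3685, 3563 and 4710.3 in fed larvae. Starved replicate 2 was the lowest in both. Cpr47Eb (1.19 ± 0.13) and Cpr49Ac (1.49 ± 0.46, but 1.07 with an adjusted p of 0.056 without fed replicate 3) were among those that rose. Of 22 genes for chitin and moulting 9 rose, among them the chitin synthase kkv (0.86 ± 0.10) and the imaginal disc growth factor Idgf1 (1.29 ± 0.14), and 7 fell, among them the chitin deacetylases serp (-0.99 ± 0.16) and verm (-0.76 ± 0.19).

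Genes of the moulting and juvenile hormones changed in both directions. Of 22 ecdysone and juvenile hormone genes 8 rose and 8 fell, a called share of 72.7%, near the 69.8% of all genes. Kr-h1, which juvenile hormone induces, gave 805, 826 and 859 in starved larvae, against 354, 306 and 307 in fed larvae. Cyp18a1, which inactivates ecdysone, gave 1212, 1322 and 1501 in starved larvae, against 599, 606 and 529 in fed larvae. The nuclear receptor Hr38 fell at dim values (-1.49 ± 0.11), ftz-f1 rose (1.03 ± 0.18), and the ecdysone importer Oatp74D rose (1.05 ± 0.13). Of 13 glue and late L3 genes 3 rose and 4 fell, and ng3, a salivary gland gene of L3, gave 16649, 19392 and 18668 in starved larvae, against 6290.0, 7758 and 3688 in fed larvae. Without starved replicate 2 only 1 of the list rose. The part of such stage genes in the other results was not tested, and stage and diet cannot be told apart from these arrays.

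Detoxification families parted by class. Of 66 cytochrome P450 genes 31 rose and 12 fell, a called share of 65.2%, against 69.8% of all genes. Cyp4ac3 gave 2329, 2674 and 2241 in starved larvae, against 336, 297 and 213 in fed larvae. Cyp28d1 rose by 2.36 ± 0.21, Cyp6g1 by 2.21 ± 0.45 and Cyp6a9 by 2.13 ± 0.14, and Cyp310a1 gave 88.8, 92.7 and 89.3 in starved larvae, against 998, 1098 and 934 in fed larvae. Glutathione S-transferases and UDP-glycosyltransferases ran the other way, with 13 higher and 30 lower of 56, a called share of 76.8%. All 9 measured GstD genes fell, at -0.57 to -3.50, and 8 of 11 GstE genes fell; these subfamilies were counted after the values were seen, and their members are alike in sequence. GstD4 gave 92.4, 87.4 and 100.4 in starved larvae, against 1608, 1241 and 593 in fed larvae, and GstD1, the bright one, gave 13392, 11716 and 12112 in starved larvae, against 19399, 20152 and 18384 in fed larvae. GstT4 of another class rose (1.83 ± 0.14). Of 23 antioxidant genes 6 rose and 10 fell, with the metallothionein MtnB at 2.40. The fly Nrf2 factor cnc and its partner maf-S, of which GstD1 is a known target, rose by 0.97 ± 0.089 and 1.13 ± 0.086.

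Among markers of tissues, the called share was 69.2% of fat body, 75.0% of neuronal and glial, 76.9% of blood cell, 45.5% of midgut, 54.5% of muscle, 68.8% of tubule and oenocyte and 50% of male germline genes, beside 69.8% of all genes. In RNA of whole larvae fewer cells of a type and less RNA per cell cannot be told apart. Of 13 fat body markers 7 fell and 2 rose (summed intensity 55546 to 57900.3 in starved and 89258 to 113987 in fed larvae). These sums hold Lsp2, which gave 18373, 16372 and 290.4 in fed larvae, with the low value on fed replicate 3. Of 20 neuronal and glial markers 13 rose and 2 fell (13156 to 13332 in starved and 9215 to 10020.3 in fed larvae), among them the synaptic genes Snap25 with 498, 513 and 501 in starved larvae, against 182, 244 and 241 in fed larvae and cpx at 1.00. Of 13 blood cell markers 8 fell, with the crystal cell gene PPO1 at 667, 659 and 619 in starved and 3391, 2527 and 1829 in fed larvae, and 2 rose (9190.2 to 9599 in starved and 10688 to 16059 in fed larvae). Midgut markers rose for 3 and fell for 2 of 11 (65102 to 69936 in starved and 58426 to 80316 in fed larvae), and muscle genes rose for 5 and fell for 7 of 22 (206163 to 217953 in starved and 211407 to 256570.0 in fed larvae). Tubule and oenocyte markers rose for 7 and fell for 4 of 16, and male germline markers rose for 6 and fell for 2 of 16. The part of these values in the gene groups above was not tested. In the basement membrane Timp, an inhibitor of matrix proteases, rose, with 2000.2, 2003 and 1624 in starved larvae, against 592, 602 and 494 in fed larvae, while 8 of 17 genes fell (5 without starved replicate 2, starved replicate 3 or fed replicate 3), such as PH4alphaEFB (-1.20 ± 0.16), which modifies collagen.

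Smaller families gave single clear changes. Of 22 odorant-binding proteins 7 rose and 6 fell, with Obp28a at 1.23 and Obp56a at -2.18. The clock repressor vri gave 368, 503 and 378 in starved larvae, against 97.2, 88.4 and 45.5 in fed larvae, and of 12 clock and takeout-like genes 6 rose and 2 fell. The time of day of sampling is not given in the sources used here. Of 13 peroxisomal genes 4 rose and 3 fell, with the import receptors Pex7 (1.23 ± 0.14) and Pex5 (0.88 ± 0.067) higher. Of 11 nuclear receptors 6 rose, Hnf4 and ftz-f1 among them, and 2 fell. Of 4 measured insulin-like peptides and binding proteins 1 rose, Ilp2 with the limits given above, and 1 fell, conv (-0.71 ± 0.10).

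The series matrix holds a second processing of these arrays, and 25 of 55 list medians differed there by more than the spread between replicates. Of 53 lists with at least 10 measured genes, 51 had a median of the same sign in both. The exceptions were lipid synthesis and β-oxidation, whose medians were close to 0 in both tables.

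**Figure D5:**
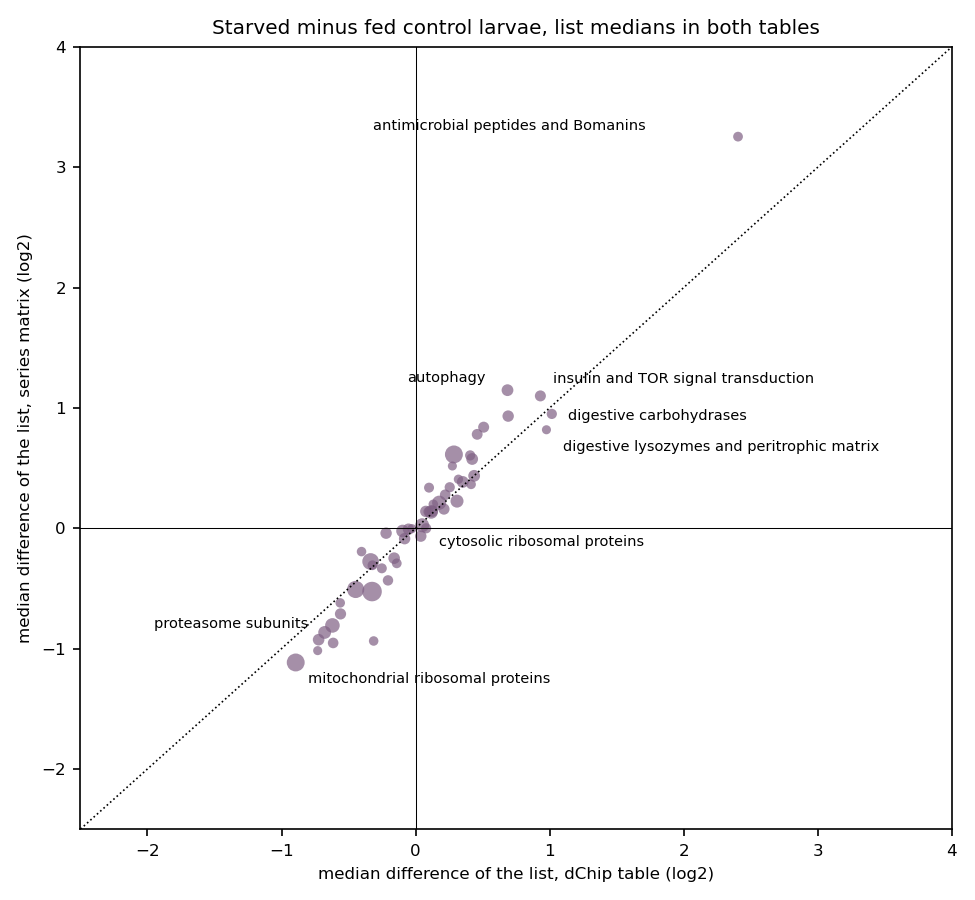
Median log2 difference, starved minus fed control larvae, of each of 53 gene lists in the dChip table (x axis) and in the series matrix (y axis), with point area growing with the number of genes and the dotted line marking equal values. Antimicrobial peptides and Bomanins lie at 2.41 and 3.25, and mitochondrial ribosomal proteins at -0.89 and -1.12.

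The series matrix also held 9100 probe sets that the dChip table lacks, mostly dim ones. Of these 703 (7.73%) were called, 610 higher (6.7%) and 93 lower (1.02%). That split depended on scaling, since the median difference over these probe sets was 0.124: quantile normalization gave 232 higher and 277 lower, and median centring 210.0 higher and 1478 lower. Directions of single dim genes are therefore given with their values only for large changes. Drsl2, a drosomycin-like gene, gave 461, 250.2 and 215 in starved larvae, against 4.10, 10.5 and 10.9 in fed larvae, and Jhe, juvenile hormone esterase, gave 47.0, 54.2 and 58.8 in starved larvae, against 347, 403 and 267 in fed larvae. The groups were far apart in both (log2 4.19 ± 0.28 and -2.65 ± 0.39, SE, adjusted p = 1.93e-05 and 0.00102). smp-30, a regucalcin-like gene, gave 1848, 1129 and 1328 in starved larvae, against 4814, 4225 and 2790.1 in fed larvae (adjusted p = 0.0126, and 0.051 without starved replicate 2), and its paralog regucalcin fell in the dChip table too (-1.02 ± 0.14). Among the other 5 largest falls in genes without a dChip probe set were Cpr65Ea, Spn42Db and RecQ4 (-1.74, -1.69 and -1.54), all dim. The rises after Drsl2 were TwdlW (2.79), CG30411 (2.64), CG11437 (2.60), CG3491 (2.41), CG9400 (2.30), CG8861 (2.29) and CG12158 (2.28), most of them from fed values near the floor of 16, which sets their size. CG12158 lost its call without starved replicate 2 or 3 or fed replicate 2 or 3.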

How the data were processed

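Total RNA of larvae, extracted with Trizol and labelled with biotin in 1 cycle, was measured on 12 one-colour arrays, per the labels' protocols. Per the file headers, the authors normalized the linear intensity values of the main table with dChip and kept Present calls. How a Present call was made is not stated, nor are version and model, and a filter on Present calls leaves out transcripts that are dim throughout. The series matrix holds intensity values that were deposited as the processed signal of each array; its method is not given in the sources used here. It was used as an alternative and for the 9100 probe sets that the dChip table lacks, after 183 array controls were left out. Each of the 12 dChip columns had its highest correlation with its own sample there. Precision is limited by the number of arrays, which have no read depth.

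Intensities under 16 were set to 16 before log2 was taken. A mean for each of the 4 groups was fitted to all 12 arrays by limma 3.58.1 under R 4.3.3 (lmFit and eBayes, 8 residual and 3.12 prior degrees of freedom), the contrast was starved minus fed controls, and p-values were adjusted by Benjamini-Hochberg over all probe sets of a table, with a threshold of 0.05. A value after ± is the standard error of the fit unless SD is named. Without adjustment, 6924 probe sets had p under 0.05. On simulated data with known changes the fit was tested first. An exact permutation test of 3 against 3 arrays cannot go below p = 0.10, so no such test is given.

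Of the dChip probe sets 7970 had 1 gene symbol, 248 several and 1451 none in the platform annotation, with symbols updated through RefSeq (genome release 6, the source of the coordinates); those with several were not named. A gene was represented by its brightest probe set. Of 407 genes with more than 1 probe set, 28 had probe sets called in opposite directions, among them Msp300, RpL3, eIF4EHP and sls of the lists. The 55 gene lists hold 1818 genes, of which 1215 were measured in the dChip table. The genes of this comparison and the lists were chosen with earlier results of these data known, so lists are described by counts and medians only. Named genes are the 15 largest rises and 15 largest falls with no overlap and a brighter group above the median intensity, the 8 and 8 largest among genes found only in the series matrix, up to 4 called rises and 4 called falls of each list, any called member where fewer than 3 were called, and the set of key starvation genes. Genes outside this rule are marked as named after their values were seen. Alternatives were the series matrix values, floors of 1 and 64, quantile normalization, median centring, removal of the dimmest 40% of probe sets, the replicate number as a block, eBayes trend and robust, array weights, control arrays alone, a minimum change of 1.5-fold, an average over the probe sets of each gene, and leaving out each control array. Promoter motifs were not analysed here.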

Additional observations from a re-analysis of the deposited data

Results flagged for a closer look

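The same contrast was taken in larvae labelled HNF4 mutant. Its group means came from arrays outside the control groups, but both contrasts used the same estimate of the spread for each probe set. Calls in the mutant contrast are therefore not independent of calls in controls. Of the 6594 probe sets called in controls, 6468 had the same sign in the mutant contrast, and 5986 of these were called there too. Of all 9669 probe sets, 7322 were called in that contrast. The difference between the 2 responses, control minus mutant, was tested as an interaction term and passed an adjusted p of 0.05 for 250 of 9669 probe sets. Among the genes named above it passed for 16, and no explanation was tested. Control responses are given first in each case.

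FASN1 had the smallest adjusted p of these. It changed by log2 -2.10 ± 0.13 in controls and by -4.76 ± 0.13 in labelled mutants, an interaction of 2.66 ± 0.19 (adjusted p = 5.79e-05). ACC changed by -1.70 ± 0.20 and -2.996 ± 0.20 (1.30 ± 0.29), and yip2, the thiolase, by 1.01 ± 0.16 and -0.28 ± 0.16 (1.29 ± 0.23). Drsl2 in the series matrix changed by 4.19 ± 0.28 and 1.07 ± 0.28 (3.12 ± 0.40), CG5966 by 3.73 ± 0.16 and 2.71 ± 0.16 (1.03 ± 0.22) and CG11300 by -3.52 ± 0.26 and -1.92 ± 0.26 (-1.60 ± 0.36). Pex5 changed by 0.88 ± 0.067 and 0.28 ± 0.067 (0.59 ± 0.10).

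Responses were larger in labelled mutants for Sesn, at 1.48 ± 0.10 and 2.26 ± 0.10 (-0.78 ± 0.14), Mal-B2, at 2.34 ± 0.12 and 3.27 ± 0.12 (-0.93 ± 0.16), and Cyp18a1, at 1.22 ± 0.11 and 2.17 ± 0.11 (-0.96 ± 0.15). The same held for Timp, at 1.74 ± 0.12 and 2.74 ± 0.12 (-1.01 ± 0.17), Cpr47Eb, at 1.19 ± 0.13 and 2.27 ± 0.13 (-1.09 ± 0.19), bigmax, at 1.57 ± 0.087 and 2.10 ± 0.087 (-0.53 ± 0.12), and trbl, at 0.39 ± 0.063 and 0.80 ± 0.063 (-0.41 ± 0.089). Npc2b fell by more in controls, at -1.10 ± 0.084 and -0.39 ± 0.084 (-0.71 ± 0.12). GstD1 changed by -0.64 ± 0.088 in controls and by -0.00044 in labelled mutants, an interaction of -0.64 ± 0.12. Groups of 3 arrays are too small for the outlier test on single samples used on 4 or more.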

How the results depend on the processing

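Counts of called probe sets in the dChip table, 3486 higher and 3108 lower, moved by over 1.5 times in 3 settings. Without the dimmest 40% of probe sets they were 2236 and 1894 of 5801, with a change of at least 1.5-fold 1879 and 1485, and 1961 were lower in the series matrix. There, 4577 of the 6594 calls were kept, 1484 had the same direction without a call, 533 the other direction, and 61 of those were called there. Leaving out 1 control array at a time gave 3116 to 3443 higher and 2721 to 3008 lower. Higher calls made up 52.9% of all calls, 61.7% in the series matrix, 48.3% after quantile normalization and 44.5% after median centring, which moved the median difference from 0.031 to -0.062. For probe sets that the dChip table lacks, with 610.0 higher and 93 lower, a floor of 64 gave 406 higher and 60 lower, quantile normalization 232 and 277, and median centring 210.0 and 1478. Leaving out 1 array gave 374 to 610.0 higher and 61 to 133 lower, the lowest without starved replicate 2 and starved replicate 1. Same-numbered starved and fed arrays deviated from their group means with correlations of -0.116, 0.200 and 0.0927. For arrays of different numbers the correlations were -0.204 to 0.179. With 3 arrays per group, these values cannot show whether equal numbers stand for samples handled together. With the replicate number as a block, 3486 were higher and 3146 lower, and in the series matrix 580.0 and 87; no named gene lost its call. Of 207 called genes named by the rule, 187 kept their call and direction in every alternative run and 0 changed direction. Of the 20.0 that did not, 15 missed a change of 1.5-fold, 8 lost the call on leaving out an array and 6 in the series matrix, and a gene can be counted more than once. The medians of 10 lists changed sign in at least 1 setting, all from values near 0 except the glue and late L3 genes (0.12 without the dimmest 40%). These were lipid synthesis (-0.13 to -0.01 in 5 settings), β-oxidation (-0.01 after median centring), cytosolic ribosomal proteins (-0.04 after median centring), ribosome biogenesis and digestive proteases (0.15 and -0.11 without fed replicate 3), chitin and moulting genes (-0.02 after median centring), midgut markers (0.06 after quantile normalization), muscle sarcomere (0.12 after quantile normalization) and sugar transporters (0.17 without the dimmest 40%). The cause of these changes was not tested. Dim probe sets limit the series matrix, where 33.7% of the added values lay under the floor of 16.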

Other observations

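Transcripts outside the lists also changed, and the ones below were chosen after their values were seen. In the pentose phosphate pathway Taldo, transaldolase, gave 1925, 1665 and 1939.7 in starved larvae, against 12887, 12948 and 12453 in fed larvae, and CG8036, a transketolase, gave 2706, 2792 and 3022 in starved larvae, against 12344, 10767 and 11933 in fed larvae. Both fell well beyond the spread (log2 -2.79 ± 0.15 and -2.04 ± 0.10), and Rpe, an epimerase of the same pathway, fell by less (-0.86 ± 0.14). Odc1, ornithine decarboxylase of polyamine synthesis, gave 4226, 5329 and 4919 in starved larvae, against 569, 571 and 676 in fed larvae. BNIP3, a mitophagy receptor, gave 6165, 6649 and 6141 in starved larvae, against 1339, 863 and 615 in fed larvae.

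Single regulators of translation were among them. Pdcd4, whose mammalian counterpart restrains the initiation helicase, gave 1976, 1959 and 2098 in starved larvae, against 519.5, 395 and 388 in fed larvae. Lk6, a kinase of the cap-binding protein, gave 6916, 7693 and 7342 in starved larvae, against 2234, 1745 and 1952 in fed larvae, and Paip2, which binds the poly(A)-binding protein, gave 2080.2, 2206 and 2248 in starved larvae, against 735, 523 and 554 in fed larvae. unk (unkempt) rose too (1.83 ± 0.11). Adgf-D, an adenosine deaminase-related growth factor, gave 1649.5, 1554 and 1739 in starved larvae, against 247, 291 and 213 in fed larvae.

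CG17752 and Orct, of the organic cation transporter family, fell, with CG17752 at 309.6, 392 and 516 in starved and 2335, 2091 and 1708 in fed larvae and Orct at 266, 250.4 and 263 in starved and 908, 849.8 and 1035 in fed larvae. Alp8, an alkaline phosphatase, fell (-2.47 ± 0.31), and so did CG10513 (-2.41 ± 0.23). nol gave 1522, 1846 and 2172 in starved larvae, against 16609, 15530.3 and 16356 in fed larvae. Among probe sets without a gene symbol in the annotation used here, one gave 359.9, 226 and 322 in starved larvae, against 32419, 32541 and 24603 in fed larvae, and another gave 16594, 20214 and 18119 in starved larvae, against 479, 386 and 84.8 in fed larvae (log2 6.19, or 5.41 without fed replicate 3).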
